A study of Homo sapiens with 44 samples.

Results

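The genes described here are the adhesion G protein-coupled receptors, taken as every protein-coding gene whose GENCODE 29 symbol starts with ADGR or is CELSR1, CELSR2 or CELSR3. The rule gave 32 of the 58721 genes in each count table, and all 32 are accounted for. RNA-seq counts came from A549, an established human lung adenocarcinoma line, and from xenograft tumours grown from it. Of the edited lines, het1 and het2 are 2 heterozygous lines and homo is 1 homozygous line, and all carry a p300 truncated at TAZ2, a domain of this acetyltransferase that binds transcription factors. WT is the parental line. The cultured groups were het1, het2, homo and WT cells (n = 3 each), and the day 30 groups were het1, het2, homo and WT tumours (n = 4 each). A further set of tumours was given an agent for 4 weeks: het1 tumours under SAHA or under vehicle, labelled DMSO, and WT tumours under SAHA or DMSO (n = 4 each). SAHA, or vorinostat, inhibits histone deacetylases. No source used here gives the host animals. With 1 homo line and 2 het lines, genotype and line cannot be told apart. Nothing in the labels ties a library to its own culture or animal. The p-values therefore measure only the spread between these samples, which may be technical.

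Adhesion receptors join a long extracellular region, built from cell-adhesion modules, to a membrane domain of the G protein-coupled type. Most cleave themselves next to the membrane, and pulling on the outer part by matrix or by a neighbouring cell exposes a tethered peptide that activates the receptor. Their ligands are matrix proteins such as collagens and laminins, and surface proteins such as teneurins and FLRT proteins. In the lung, ADGRF5 of alveolar cells is known in mice for holding surfactant at its normal level, and ADGRL4 and ADGRF5 mark endothelium.

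Upstream sequence is shown for 4 members whose levels differed between tumours and cells. ADGRG6 and ADGRG2 were lower in WT tumours than in WT cells, while ADGRG1 and ADGRV1 were higher. RefSeq promoter entries on GRCh38.p14 matched 21 of the 32 members, in 37 entries. Each sequence is the 250 bases before an annotated start, 5′ to 3′ along the gene, and capitals mark every match to 1 of 7 motifs.
ADGRG6, chr6:142301757-142302006, plus strand: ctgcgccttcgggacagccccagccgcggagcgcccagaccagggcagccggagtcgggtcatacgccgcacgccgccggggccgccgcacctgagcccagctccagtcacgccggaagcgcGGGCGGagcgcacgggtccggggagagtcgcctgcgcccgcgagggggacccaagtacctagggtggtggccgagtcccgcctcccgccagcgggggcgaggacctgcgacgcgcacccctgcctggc
ADGRG2, chrX:19122469-19122718, minus strand: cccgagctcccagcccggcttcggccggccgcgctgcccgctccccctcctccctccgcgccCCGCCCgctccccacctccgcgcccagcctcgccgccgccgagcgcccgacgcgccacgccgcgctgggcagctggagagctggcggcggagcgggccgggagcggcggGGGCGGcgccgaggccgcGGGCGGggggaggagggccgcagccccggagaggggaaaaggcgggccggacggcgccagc
ADGRG1, chr16:57628380-57628629, plus strand: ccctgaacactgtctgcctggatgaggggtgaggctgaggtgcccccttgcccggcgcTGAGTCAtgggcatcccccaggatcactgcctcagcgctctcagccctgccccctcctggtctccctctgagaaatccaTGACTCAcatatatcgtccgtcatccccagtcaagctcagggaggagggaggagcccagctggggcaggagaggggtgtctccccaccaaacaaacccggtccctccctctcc
ADGRV1, chr5:90558547-90558796, plus strand: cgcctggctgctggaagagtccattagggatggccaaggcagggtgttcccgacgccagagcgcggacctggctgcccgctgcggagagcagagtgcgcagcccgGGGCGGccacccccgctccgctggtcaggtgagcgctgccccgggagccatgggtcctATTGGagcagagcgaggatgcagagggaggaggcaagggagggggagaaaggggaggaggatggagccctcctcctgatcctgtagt
The motifs searched on both strands were the E-box CACGTG, the AP-1 site TGANTCA, the cyclic AMP response element TGACGTCA, the TEAD site GGAATG, the GC box GGGCGG, the CCAAT box CCAAT and the TATA box TATAAA. No matches overlapped in these 4 windows. ADGRG6 held 1 GC box and ADGRG2 held 3, and ADGRV1 held 1 GC box and 1 CCAAT box. The ADGRG1 window held 2 AP-1 sites. Of all 35116 promoter windows of this length, 42.6% held a GC box, 32.0% a CCAAT box and 6.57% an AP-1 site. The windows of ADGRG6 and ADGRG2 held 34 and 42 CpG pairs, more than 93.2% and 98.6% of all windows. Those of ADGRV1 and ADGRG1 held 15 and 6 pairs, against a median of 11. The 4 members were picked, and whether CpG content goes with direction was not tested. Among other members lower in WT tumours, ADGRB2 held 38 pairs and ADGRE1 held 3. The other 2 entries of ADGRG1, which start at positions 57619488 and 57619796, had no match to any of the 7 motifs.

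Levels are CPM, read counts scaled to library size with the TMM factors of each count table, given as means ± SD over libraries. A cultured library held between 61168373 and 93444327 counts, a day 30 tumour library between 63243289 and 99593214, and a treated one between 61937591 and 82475298. The edited gene EP300, which encodes p300, stayed expressed in all 12 groups, at 185 ± 2.87 CPM in het1 cells, 153 ± 4.05 in het2 cells and 190.5 ± 2.38 in homo cells, against 115 ± 3.84 in WT cells. Its tumour means at day 30 were 102, 105 and 140.2 CPM in het1, het2 and homo tumours and 88.7 CPM in WT tumours. Its paralog CREBBP averaged 65.5, 89.4 and 99.2 CPM in these 3 lines and 108 CPM in WT tumours. A gene-level count does not read the truncation itself. Epithelial markers summed to between 729 and 6254 CPM per library. The lung markers NKX2-1, SFTPB, SFTPC and SCGB1A1 together stayed under 1 CPM in every library, so the lung origin in the label rests on the cell line's name.

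Of the 32 members, 21 reached a mean of 1 CPM in at least 1 group and 13 did so in every group. The other 11 stayed under 1 CPM in all 12 groups: ADGRL4, ADGRE3, ADGRA1, ADGRD2, ADGRF1, ADGRF2, ADGRF3, ADGRF5, ADGRG3, ADGRG4 and ADGRG7. ADGRG4 had 0 counts in all 4 day 30 tumour groups. The endothelial receptors ADGRL4 and ADGRF5 peaked at means of 0.0686 CPM in WT tumours and 0.0984 CPM in homo tumours. ADGRF5 had 0 counts in homo cells, which allows up to 0.0154 CPM, and likewise 0 in WT cells, which allows up to 0.0125 CPM (counting error only, as for every such limit). Per kilobase of exon, ADGRG6 was the highest member in all 4 cultured groups, in every group of het1 tumours, and in het2 and homo tumours. It reached 78.2 CPM per kb in het1 cells and 73.1 in het1 tumours, against 34.9 in WT cells. In WT tumours ADGRG1 was highest, at 36.4 CPM per kb at day 30, and ADGRG6 stood at 3.30 there.

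**Figure D1:**
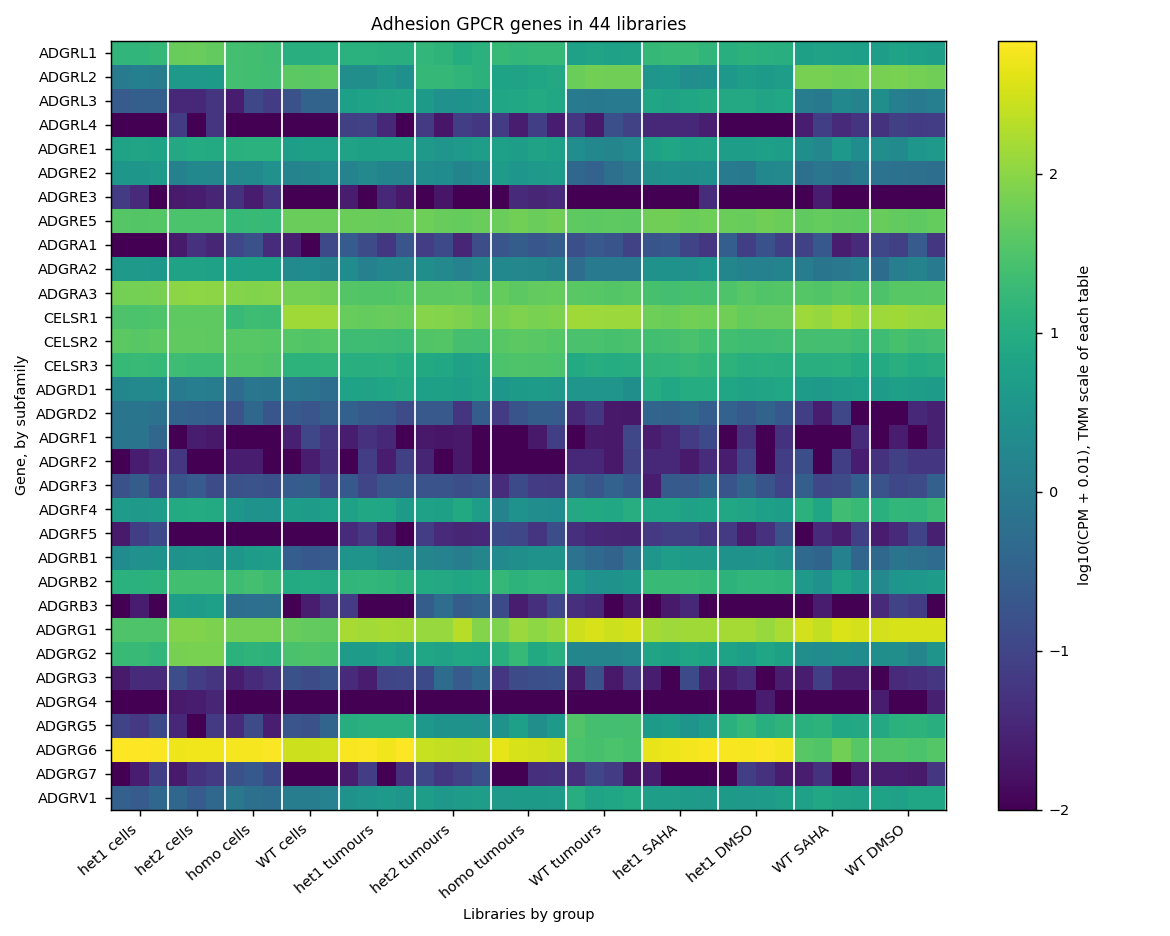
Each column is 1 of 44 libraries, grouped by line and setting, and each row is 1 of 32 adhesion receptor genes; colour is log10(CPM + 0.01) on the TMM scale of each table. ADGRG6 is the brightest row in het1, het2 and homo libraries and darkens in all WT tumours, while 11 rows stay dark throughout.

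Each line was first compared with WT. A call is a Benjamini-Hochberg adjusted p under 0.05 in edgeR's quasi-likelihood test over all genes of the table, and log2FC is the log2 fold change with its standard error (SE). In culture 24 members passed the count filter. Of these 24, 19 were called in het1 cells (12 higher, 7 lower), where 62.8% of all genes tested were called (32.0% higher, 30.8% lower). Every share of all genes is over genes tested, so the members that passed the filter are the matching base. In het2 cells 21 were called (14 higher, 7 lower), against 68.5% of all genes (35.1% and 33.3%), and in homo cells 19 (10 higher, 9 lower), against 70.5% (35.4% and 35.1%). At day 30, 25 members passed. In het1 tumours 18 were called (12 higher, 6 lower), against 51.5% of all genes (26.8% and 24.8%). Het2 tumours had 20 calls (14 higher, 6 lower), against 49.2% (24.4% and 24.8%), and homo tumours 22 (15 higher, 7 lower), against 54.8% (27.1% and 27.7%). With the mean log2 CPM of 10 endothelial markers as a covariate, 10 members were called in het2 tumours and 11 in homo tumours, against 18.0% and 15.7% of all genes in that fit. The 3 lines share their WT libraries. In bulk tumour RNA, fewer cells of a type and less RNA per cell cannot be told apart. Calls were common over the whole transcriptome. The share of tested members called lay above the share of all genes in every line, in cells and in tumours. Whether this sets the family apart from other genes was not tested, and the sizes of single members are given below by subfamily.

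**Figure D2:**
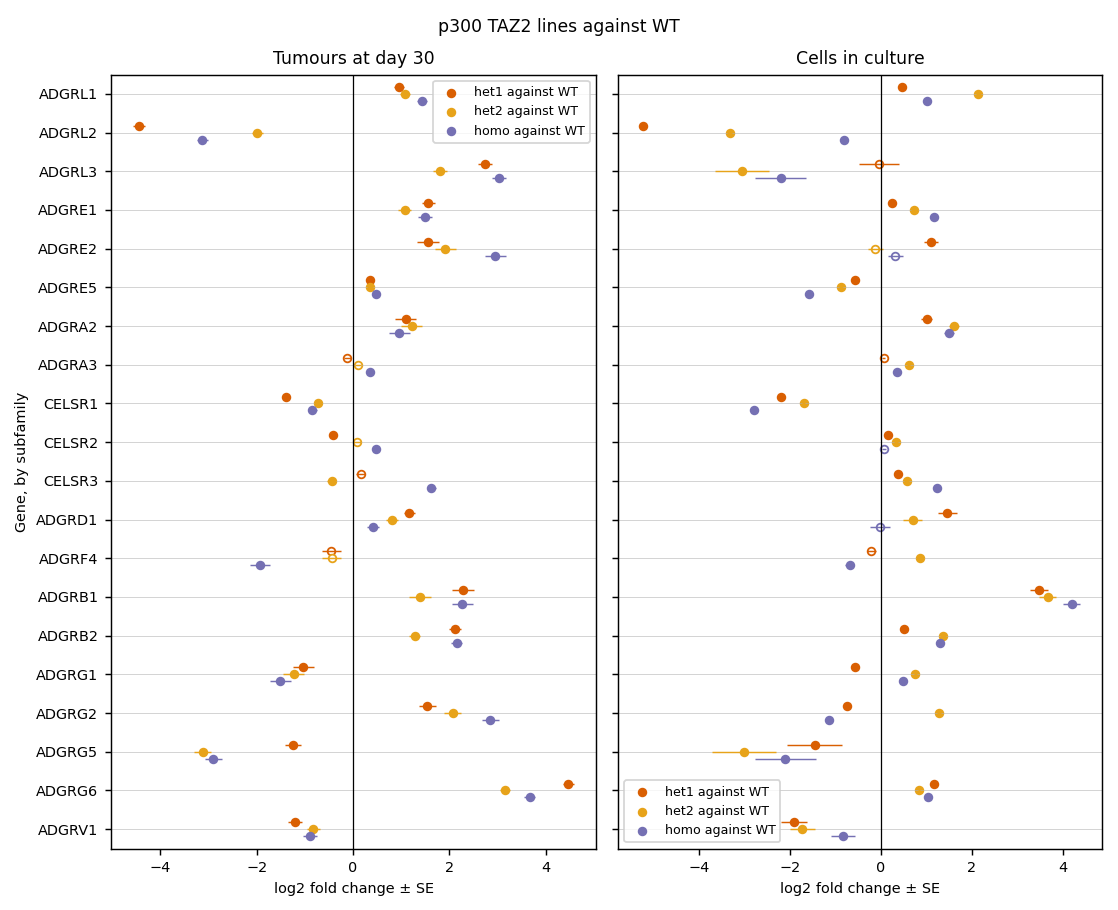
Points are log2 fold changes of het1, het2 and homo against WT with SE bars, for the 20 members that reached 1 CPM in a group, ADGRB3 left out because several of its groups hold under 10 counts; filled points have an adjusted p under 0.05. ADGRG6 is above 3 in all 3 lines' tumours and near 1 in their cells, and ADGRL2 lies left of 0 in both panels.

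Among the latrophilins, receptors of teneurins and FLRT proteins, ADGRL2 was lower in every line. In culture it had 0.997, 1.22 and 1.09 CPM in het1 cells, 3.92, 4.21 and 4.24 in het2 cells and 24.1, 23.4 and 23.0 in homo cells, against 40.9, 40.4 and 42.4 in WT cells. No line overlapped WT, and het1 was the lowest. The log2FC was -5.22 ± 0.075 in het1 cells (edgeR adjusted p = 1.17e-32), -3.32 ± 0.06 in het2 and -0.81 ± 0.05 in homo. In tumours ADGRL2 had 2.44, 2.45, 3.56 and 2.69 CPM in het1 tumours, 16.9, 16.5, 14.9 and 13.0 in het2 tumours and 6.47, 6.12, 6.85 and 8.31 in homo tumours, against 57.3, 63.8, 61.3 and 60.5 in WT tumours. The falls were 21.8-fold in het1, 3.96-fold in het2 and 8.74-fold in homo tumours. Het1 was again the lowest line, and homo tumours lay below het2 tumours.

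ADGRL3, a latrophilin of neuronal synapses, was near 0 in culture and separated the tumours. Its cell means were 0.267, 0.0315 and 0.0594 CPM in het1, het2 and homo, against 0.271 in WT. Tumour libraries held 5.42, 6.48, 6.75 and 7.21 CPM in het1 tumours, 4.33, 2.74, 2.99 and 3.41 in het2 tumours and 7.32, 7.46, 8.85 and 7.96 in homo tumours, against 1.03, 0.882, 0.940 and 1.00 in WT tumours. All 12 libraries of the 3 lines lay above all WT tumours, with log2FC of 2.74 ± 0.14, 1.80 ± 0.14 and 3.03 ± 0.14 in het1, het2 and homo. ADGRL1 was higher in every line. It had 15.4, 15.2 and 16.7 CPM in het1 cells, 51.6, 52.9 and 47.8 in het2 cells and 24.3, 24.0 and 21.5 in homo cells, against 11.3, 11.2 and 11.9 in WT cells, and het2 stood well above the others (log2FC 2.15 ± 0.055). In tumours ADGRL1 had 12.3, 12.4, 11.2 and 11.3 CPM in het1 tumours, 15.7, 13.8, 9.96 and 12.0 in het2 tumours and 17.2, 16.2, 16.3 and 16.5 in homo tumours, against 5.80, 6.71, 5.94 and 5.98 in WT tumours. Het2 tumours overlapped het1 tumours there, and the means of the 3 lines lay between 0.95 and 1.44 log2 units above WT. With the endothelial covariate the ADGRL1 calls were lost in het2 and homo tumours (edgeR adjusted p = 0.150 and 0.0834). An antisense gene overlaps 473 bases of ADGRL1 exons, and no source used here gives the strand setting of the counting.

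In the ADGRE group, ADGRE5 (CD97, a leukocyte receptor of CD55) changed sides between culture and tumour. Cells had 36.4, 35.0 and 36.7 CPM in het1 cells, 28.6, 29.6 and 28.7 in het2 cells and 17.1, 18.7 and 17.6 in homo cells, against 53.6, 52.8 and 53.4 in WT cells. Every line was lower, with log2FC of -0.56 ± 0.04 in het1, -0.88 ± 0.04 in het2 and -1.58 ± 0.043 in homo (edgeR adjusted p = 2.02e-25). The tumours had 57.0, 53.5, 52.2 and 53.3 CPM in het1 tumours, 59.7, 52.5, 48.3 and 54.7 in het2 tumours and 54.6, 63.3, 53.2 and 62.0 in homo tumours, against 43.3, 41.1, 42.6 and 41.5 in WT tumours. Here all 3 lines were higher than WT, with log2FC of 0.36 ± 0.065, 0.35 ± 0.065 and 0.47 ± 0.065. ADGRE1, the human gene of the mouse macrophage marker F4/80, had 6.05, 5.53, 5.73 and 5.80 CPM in het1 tumours, 4.20, 3.25, 3.99 and 5.00 in het2 tumours and 5.42, 4.89, 6.19 and 5.46 in homo tumours, against 2.31, 1.78, 1.57 and 2.15 in WT tumours. Its rises were 2.96-fold in het1, 2.10-fold in het2 and 2.81-fold in homo tumours. The 8 myeloid markers summed to 13.4 to 16.6 CPM in het1 tumours, 25.3 to 31.6 in het2 and 17.4 to 20.7 in homo, against 32.8 to 46.1 in WT tumours. LYZ carried most of the WT sum. The means of the other 7 markers add to 7.86 CPM in het1, 13.1 in het2 and 10.15 in homo tumours, against 6.23 in WT tumours. CD14 carried most of this rise, at 5.36, 9.57 and 5.94 CPM in het1, het2 and homo tumours and 2.61 in WT tumours. Not all of the 7 rose. ITGAM and CSF1R averaged 1.15 and 0.714 CPM in het1 tumours, against 2.00 and 1.11 in WT tumours. The part of the myeloid markers in the ADGRE1 difference was not tested. In cultured cells ADGRE1 averaged 6.33 CPM in het1, 8.92 in het2 and 12.1 in homo, against 5.33 in WT.

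ADGRE2, a myeloid receptor of chondroitin sulfate, had 1.47, 1.91, 1.498 and 1.45 CPM in het1 tumours, 2.36, 2.25, 1.54 and 2.01 in het2 tumours and 4.60, 3.49, 4.09 and 4.51 in homo tumours, against 0.397, 0.323, 0.592 and 0.822 in WT tumours. Homo tumours were highest (log2FC 2.95 ± 0.22), above het2 (1.92 ± 0.22) and het1 (1.55 ± 0.22). The het2 call was lost with the endothelial covariate (edgeR adjusted p = 0.0622). In culture only het1 passed the test, with 3.68, 3.63 and 3.87 CPM against 1.43, 1.56 and 2.16 in WT cells. ADGRE2 shares 1354 exon bases with ZNF333 on the other strand and is a close paralog of ADGRE5, so its counts carry that uncertainty.

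ADGRA2, which works with RECK as a coreceptor for WNT7 signals in brain vessels, had 3.89, 4.13 and 3.74 CPM in het1 cells, 6.07, 5.99 and 5.82 in het2 cells and 5.29, 5.65 and 5.52 in homo cells, against 2.00, 2.27 and 1.61 in WT cells. Every cultured line was higher (log2FC 1.01 ± 0.11, 1.61 ± 0.11 and 1.49 ± 0.11 in het1, het2 and homo). In tumours it averaged 1.78 ± 0.392 CPM in het1, 1.94 ± 0.478 in het2 and 1.62 ± 0.213 in homo, against 0.832 ± 0.210 in WT, and all 3 rises passed the test. ADGRA2 shares 1629 exon bases with BRF2 on the other strand. ADGRA3, whose ligand is not settled, ranged from 68.4 CPM in het1 to 99.9 in het2 cells, against 65.5 in WT cells, and its largest difference from WT was 1.53-fold, in het2 cells.

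The CELSR genes encode the flamingo cadherins of planar cell polarity, by which cells of a sheet align. CELSR1 was lower in every line. Cultured libraries had 30.4, 29.8 and 31.3 CPM in het1 cells, 43.2, 42.4 and 43.0 in het2 cells and 19.2, 21.1 and 20.2 in homo cells, against 141, 140.3 and 134 in WT cells. The falls were 4.54-fold in het1, 3.23-fold in het2 and 6.87-fold in homo cells (edgeR adjusted p = 2.41e-33). As tumours the libraries had 51.5, 48.2, 52.0 and 49.3 CPM in het1 tumours, 91.7, 87.5, 76.4 and 62.6 in het2 tumours and 68.4, 78.1, 71.8 and 76.4 in homo tumours, against 141, 135, 127 and 126 in WT tumours. The tumour differences were smaller, at -1.40 ± 0.087, -0.73 ± 0.085 and -0.84 ± 0.086 in het1, het2 and homo. Still no line overlapped WT, while het2 and homo tumours overlapped each other. CELSR3 rose most in homo, with 33.1, 33.3 and 30.2 CPM in homo cells against 13.4, 13.2 and 14.2 in WT cells. Homo tumours held 28.7, 32.4, 30.6 and 29.6 CPM, against 8.92, 10.4, 9.68 and 10.4 in WT tumours (log2FC 1.62 ± 0.096, and 0.82 with the endothelial covariate). In het2 tumours CELSR3 fell, with log2FC -0.44 ± 0.097. CELSR2 moved little, with log2FC between -0.42 in het1 tumours and 0.48 in homo tumours.

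ADGRD1, a receptor that raises cyclic AMP and binds PTK7, had 6.49, 6.03, 7.18 and 8.26 CPM in het1 tumours, 5.30, 5.54, 5.00 and 6.01 in het2 tumours and 3.46, 4.39, 4.55 and 4.18 in homo tumours, against 3.25, 3.30, 3.28 and 2.60 in WT tumours. All 3 rises were called, the het1 one being 1.17 ± 0.12. ADGRF4 is the only ADGRF member above 1 CPM. It fell in homo tumours, which had 1.46, 2.98, 2.31 and 2.22 CPM against 8.15, 8.53, 7.52 and 10.1 in WT tumours (log2FC -1.93 ± 0.21). Het1 and het2 tumours overlapped WT for ADGRF4 at day 30 and were not called. In treated tumours ADGRF4 averaged 6.19 ± 1.16 CPM in het1 and 15.5 ± 3.36 in WT under DMSO. Under SAHA it averaged 6.51 ± 0.654 in het1 and 15.2 ± 6.62 in WT.

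The ADGRB genes encode the brain angiogenesis inhibitor receptors. ADGRB1, a receptor for phosphatidylserine on dying cells, had 2.26, 2.84 and 2.86 CPM in het1 cells, 3.02, 3.18 and 2.87 in het2 cells and 3.65, 4.66 and 4.80 in homo cells, against 0.274, 0.207 and 0.232 in WT cells. The log2FC values were 3.48 ± 0.20, 3.67 ± 0.19 and 4.20 ± 0.19 in het1, het2 and homo cells. Tumours of these lines averaged 2.62 ± 0.588, 1.41 ± 0.250 and 2.59 ± 0.402 CPM, against 0.535 ± 0.178 in WT tumours. ADGRB2 had 15.0, 16.1, 14.8 and 12.6 CPM in het1 tumours, 8.98, 8.20, 6.82 and 8.74 in het2 tumours and 16.4, 13.5, 15.5 and 14.6 in homo tumours, against 4.14, 2.81, 2.97 and 3.58 in WT tumours. Its rises were 4.33-fold in het1, 2.42-fold in het2 and 4.44-fold in homo tumours. In culture ADGRB2 averaged 12.8 ± 0.757, 23.1 ± 0.0607 and 22.1 ± 2.03 CPM in these lines, against 8.94 ± 0.738 in WT. ADGRB3, a neuronal receptor of C1q-like proteins, was highest in het2 in culture, with 5.11, 4.60 and 5.34 CPM in het2 cells and a mean of 0.584 in homo cells. It held 1261 counts over the het2 group, against 5 over the WT group (log2FC 7.70 ± 0.31, and 9.11 without WT replicate 3), and het1 cells held 1 count. In het2 tumours ADGRB3 averaged 0.346 ± 0.129 CPM, against 0.0179 ± 0.0158 in WT tumours.

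ADGRG6 (GPR126), which Schwann cells need to myelinate and which binds type IV collagen, laminin and the prion protein, was the most abundant member outside WT tumours. Cultured libraries of ADGRG6 had 665, 676 and 647 CPM in het1 cells, 518, 535 and 534 in het2 cells and 600.5, 590.1 and 632 in homo cells, against 289, 297 and 302 in WT cells. The rise was 2.24-fold in het1, 1.79-fold in het2 and 2.05-fold in homo cells. The tumours had 607, 653, 534 and 684 CPM in het1 tumours, 271, 243, 241 and 245 in het2 tumours and 452, 344, 334 and 293 in homo tumours, against 28.9, 27.2, 28.8 and 26.9 in WT tumours. No edited tumour came near a WT tumour. The log2FC was 4.47 ± 0.12 in het1 (edgeR adjusted p = 2.20e-15), 3.16 ± 0.11 in het2 and 3.67 ± 0.11 in homo tumours, which is 22.1-fold, 8.93-fold and 12.7-fold. The 10 endothelial markers summed to 57.2 to 69.0 CPM in het1, 42.7 to 55.1 in het2 and 63.0 to 79.4 in homo tumours, against 13.1 to 14.8 in WT tumours. EGFL7 made up most of this sum (63.6 CPM in het1 tumours and 10.7 in WT tumours) and was also at 22.9 CPM in het1 cells and 13.4 in WT cells. Without EGFL7 the means of the other 9 markers add to 1.75 CPM in het1, 8.20 in het2 and 5.80 in homo tumours, against 3.13 in WT tumours. Single markers differed in direction. PECAM1 and CDH5 averaged 0.401 and 0.0218 CPM in het1 tumours, against 1.56 and 0.118 in WT tumours. TIE1 and ESAM averaged 0.216 and 0.254 CPM in het1 tumours, against 0.116 and 0.213 in WT tumours. PECAM1 and CDH5 averaged 4.25 and 1.13 CPM in het2 tumours and 0.966 and 0.976 in homo tumours. EMCN was at 0 in het1 tumours at day 30 and at 0.0110 CPM in WT tumours. With the mean log2 CPM of the 10 markers as a covariate ADGRG6 stayed called in all 3 lines' tumours. Over all genes that fit called 11110 genes in het1 tumours, 4058 in het2 and 3548 in homo, against 11612, 11084 and 12348 without it. The covariate may follow line, so a kept or lost call does not measure the part of endothelial cells, which was not tested.

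ADGRG1 (GPR56), a receptor of type III collagen and transglutaminase 2, was lower in the edited tumours. These had 156, 149, 159 and 149.8 CPM in het1 tumours, 121, 125, 206 and 85.6 in het2 tumours and 80.7, 129.9, 101 and 129.5 in homo tumours, against 299, 342, 291 and 329.9 in WT tumours. One het2 library reached 206 CPM, yet no edited library reached the lowest WT tumour. The log2FC was -1.04 ± 0.22 in het1, -1.23 ± 0.22 in het2 and -1.52 ± 0.22 in homo. In culture the order was different: 32.1 ± 0.0817 CPM in het1, 80.1 ± 2.97 in het2 and 66.2 ± 0.823 in homo, against 47.3 ± 2.85 in WT, so that het2 and homo were higher and het1 lower.

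ADGRG5, an orphan receptor that signals through Gs, lies next to ADGRG1. ADGRG5, ADGRG1 and ADGRG3 fill 147 kb of chromosome 16 (GRCh38, positions 57542421 to 57689378). Tumours had 10.2, 11.7, 11.9 and 11.7 CPM in het1 tumours, 3.74, 2.93, 3.06 and 2.74 in het2 tumours and 2.96, 5.24, 2.43 and 3.92 in homo tumours, against 32.8, 25.2, 25.1 and 25.5 in WT tumours. The falls were 2.38-fold in het1, 8.69-fold in het2 and 7.47-fold in homo. In culture ADGRG5 was near 0, with means of 0.0846, 0.0266 and 0.0532 CPM in these lines and 0.230 in WT. ADGRG3, a leukocyte receptor, peaked at a mean of 0.322 CPM in het2 tumours.

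ADGRG2, known from the epididymis, had 18.1, 17.8 and 16.1 CPM in het1 cells, 69.1, 71.5 and 71.4 in het2 cells and 12.8, 14.0 and 12.9 in homo cells, against 28.1, 30.8 and 28.3 in WT cells. It was lower in het1 and homo cells and higher in het2 cells (log2FC -0.75 ± 0.049, -1.14 ± 0.051 and 1.28 ± 0.046). In tumours ADGRG2 had 4.45, 4.63, 5.84 and 4.50 CPM in het1 tumours, 7.17, 5.98, 7.77 and 7.09 in het2 tumours and 10.8, 17.4, 8.53 and 11.3 in homo tumours, against 1.62, 1.58, 1.60 and 1.86 in WT tumours, and every line was higher than WT, homo the most (log2FC 2.85 ± 0.18). ADGRV1, the very large receptor of the inner ear that is mutated in Usher syndrome, was lower in the lines. It averaged 3.52 ± 0.436 CPM in het1, 4.59 ± 0.630 in het2 and 4.37 ± 0.294 in homo tumours, against 8.13 ± 1.74 in WT tumours, and 0.299, 0.231 and 0.420 in het1 cells against 1.08, 1.07 and 1.39 in WT cells.

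**Figure D3:**
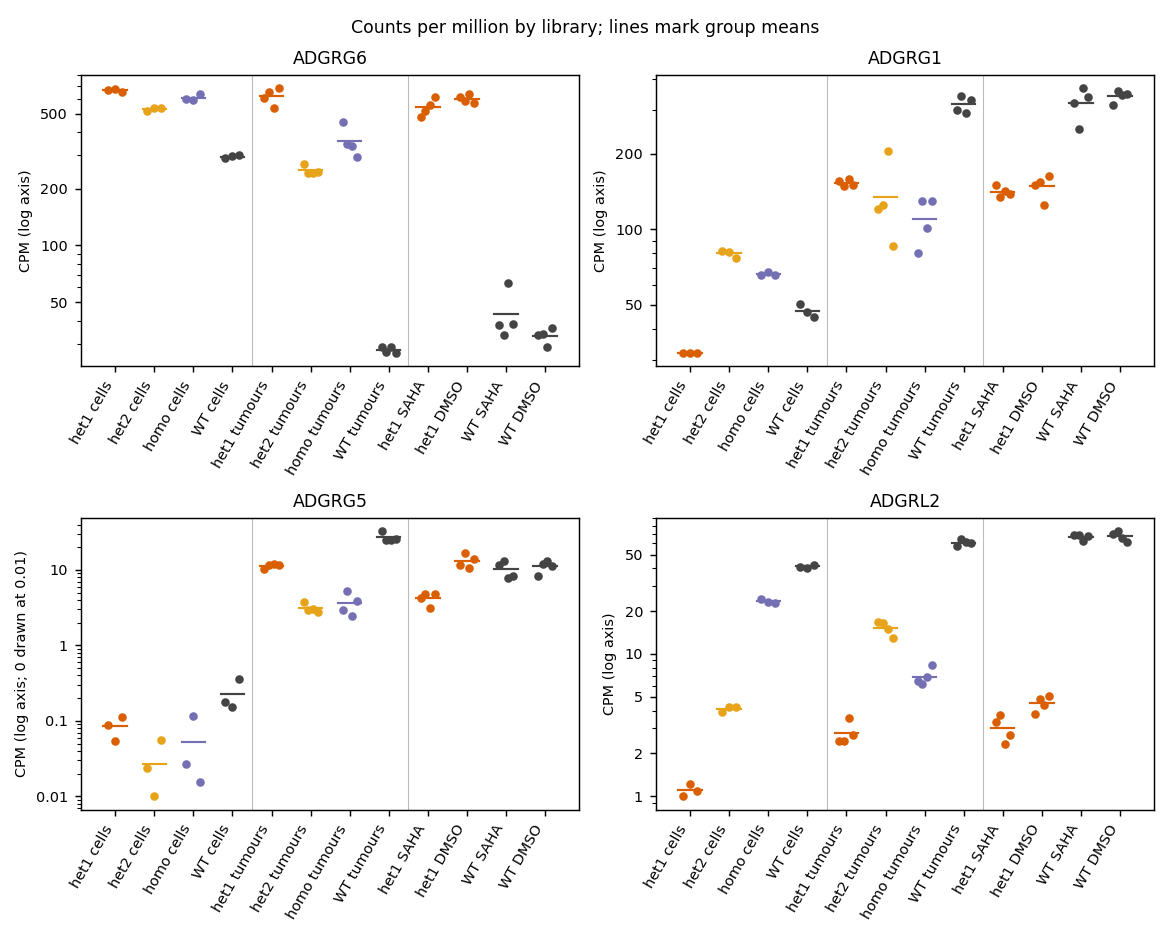
Points are CPM of single libraries for ADGRG6, ADGRG1, ADGRG5 and ADGRL2, on log axes and on the TMM scale of each table, and short lines are group means. WT tumours are the lowest group for ADGRG6 and the highest day 30 group for ADGRG1 and ADGRG5, and het1 is the lowest group for ADGRL2 in cells and in tumours.

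The homo line was also compared with the mean of the 2 het lines, and het1 with het2. Homo cells had 17 members called (8 higher, 9 lower), against 49.9% of all genes (25.0% and 24.9%), and homo tumours 14 (10 higher, 4 lower), against 44.7% (22.1% and 22.7%). With the endothelial covariate the tumour count was 3, against 9.65% of all genes. ADGRL2 was higher in homo than in het cells (log2FC 3.46 ± 0.056). CELSR3 set homo tumours apart, at 30.3 CPM in homo against 11.0 in het1 and 7.24 in het2 (log2FC 1.76 ± 0.079, edgeR adjusted p = 9.26e-13). ADGRG2 was lower in homo than in het cells (-1.41 ± 0.046) and higher in homo than in het tumours (1.04 ± 0.13). ADGRF4 was lower in homo in both settings, with log2FC of -1.01 ± 0.09 in cells and -1.48 ± 0.19 in tumours. ADGRD1 was also lower in homo cells (-1.10 ± 0.19), and ADGRE2 was higher in homo tumours (1.22 ± 0.17). The tumour calls of ADGRG2, ADGRE2 and ADGRF4 were lost with the endothelial covariate (edgeR adjusted p = 0.123, 0.232 and 0.201).

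Between het1 and het2 cells 20 members were called (7 higher, 13 lower in het1), against 55.7% of all genes (27.6% and 28.1%). In tumours 16 were called (8 higher, 8 lower), against 49.3% (25.4% and 24.0%), and with the endothelial covariate 4 were, against 13.4% of all genes. Cultured het1 was lower than het2 for ADGRG2 (log2FC -2.03 ± 0.048), ADGRL2 (-1.90 ± 0.095), ADGRL1 (-1.69 ± 0.053), ADGRG1 (-1.32 ± 0.04) and ADGRF4 (-1.07 ± 0.092), and higher for ADGRE2 (1.22 ± 0.15). Het1 tumours were lower than het2 tumours for ADGRL2 (-2.46 ± 0.12). They were higher for ADGRG6 (1.31 ± 0.10) and ADGRG5 (1.87 ± 0.18).

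Day 30 tumours were set against cultured cells of the same line in 1 fit of both tables, where growth as a tumour, preparation and table cannot be told apart. Of the 32 members, 27 passed the filter. In het1, 20 members were called (11 higher, 9 lower in tumours), against 65.2% of all genes (36.8% and 28.4%). The other lines had 23 in het2 (11 higher, 12 lower), against 66.3% (35.6% and 30.6%), 20 in homo (9 higher, 11 lower), against 64.1% (34.8% and 29.3%), and 22 in WT (10 higher, 12 lower), against 67.1% (35.0% and 32.1%).

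Receptors higher in the tumours of every line were ADGRL3, ADGRD1, ADGRG1, ADGRG5 and ADGRV1. ADGRG5 is near 0 in all cultured groups and reached 11.4, 3.12 and 3.64 CPM in het1, het2 and homo tumours and 27.1 CPM in WT tumours, with log2FC of 7.16 ± 0.34, 6.85 ± 0.43, 6.17 ± 0.40 and 6.86 ± 0.29. Its log2FC in het2 and homo rests on 7 and 11 counts over the cultured group, and the homo value was 7.40 without homo cell replicate 2. ADGRV1 rose 12.0-fold in het1, 14.0-fold in het2, 7.12-fold in homo and 7.04-fold in WT. ADGRD1 rose 4.07-fold, 5.47-fold, 6.81-fold and 4.76-fold in the same lines. ADGRL3 rose 26.1-fold in het1 and 3.56-fold in WT. Its larger folds in het2 and homo rest on 8 and 12 cultured counts.

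ADGRG1 had a log2FC of 2.37 ± 0.20 in het1, 0.87 ± 0.19 in het2, 0.86 ± 0.19 in homo and 2.78 ± 0.21 in WT. ADGRG6 did not pass the test in het1 (log2FC 0.015 ± 0.088), fell in het2 (-0.95 ± 0.088) and homo tumours (-0.65 ± 0.088), and fell 10.3-fold in WT tumours (edgeR adjusted p = 4.78e-21). ADGRG2 fell 3.30-fold in het1, 9.22-fold in het2 and 16.9-fold in WT tumours, but homo was not called (log2FC -0.016 ± 0.14). ADGRE5 rose in the tumours of the 3 edited lines and fell in WT tumours, and CELSR1 rose in the 3 edited lines and did not pass in WT. ADGRE5 had log2FC of 0.70 ± 0.061, 1.02 ± 0.062 and 1.83 ± 0.065 in het1, het2 and homo, against -0.30 ± 0.06 in WT. CELSR1 had 0.83 ± 0.08, 1.02 ± 0.079 and 1.99 ± 0.084, against -0.025 ± 0.076 in WT. ADGRA2 and ADGRA3 fell in the tumours of all 4 lines. ADGRL2 rose in het1 (1.45 ± 0.14), het2 (2.03 ± 0.11) and WT tumours (0.60 ± 0.092) and fell in homo tumours (-1.64 ± 0.097). Markers of other cell types moved with this comparison. Fibroblast and pericyte markers summed to 97.1 to 250.2 CPM in het1 tumours, against 23.3 to 25.2 in het1 cells, and to 178 to 304 in WT tumours, against 8.55 to 9.39 in WT cells. The sums were 73.2 to 279 in het2 tumours, against 44.6 to 47.1 in het2 cells, and 254.5 to 375 in homo tumours, against 58.35 to 66.0 in homo cells. Their part in these differences was not tested.

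**Figure D4:**
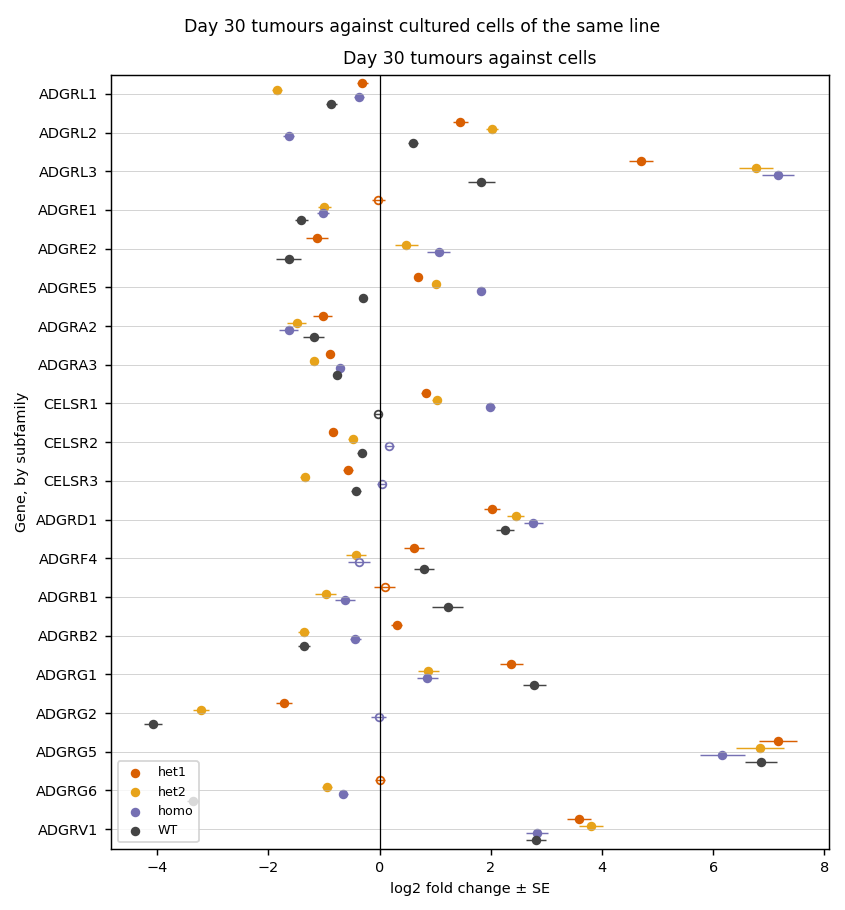
Points are log2 fold changes of day 30 tumours against cultured cells of the same line with SE bars, for het1, het2, homo and WT; filled points have an adjusted p under 0.05, and ADGRB3 is left out for low counts. ADGRG5 lies above 6 in all 4 lines, and ADGRG6 is near 0 in het1 and at -3.36 in WT.

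Whether the tumour-to-cell difference itself differed from WT was tested as an interaction in the same fit, a test added after the data were seen. Of the 27 members tested, 15 were called in het1 (12 higher, 3 lower), against 39.2% of all genes (24.2% and 15.0%). In het2 there were 18 (11 higher, 7 lower), against 47.6% (27.2% and 20.4%), and in homo 18 (13 higher, 5 lower), against 49.1% (28.7% and 20.4%). ADGRG6 had 3.38 ± 0.13 log2 units in het1 (edgeR adjusted p = 3.80e-17), 2.41 ± 0.13 in het2 and 2.71 ± 0.13 in homo. The ADGRE5 values were 0.99 ± 0.085, 1.32 ± 0.085 and 2.13 ± 0.087 in the same lines. For CELSR1 they were 0.86 ± 0.11, 1.05 ± 0.11 and 2.02 ± 0.11. ADGRG2 gave 2.36 ± 0.22 in het1, 0.87 ± 0.21 in het2 and 4.06 ± 0.22 in homo. ADGRL2 gave 0.85 ± 0.17 and 1.43 ± 0.14 in the het lines and -2.24 ± 0.13 in homo. ADGRG1 went the other way in het2 (-1.91 ± 0.27) and homo (-1.92 ± 0.27), while het1 did not pass (-0.41 ± 0.27).

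The treated tumours tested the response to SAHA in het1 and in WT. Of the 32 members, 23 passed the filter. In het1 tumours 8 were called (5 higher, 3 lower), against 16.8% of all genes (7.68% and 9.15%). In WT tumours 0 were called, against 0% of all genes in the main edgeR fit. In WT, 2 members and 1911 genes had an unadjusted p under 0.05, and DESeq2 called 151 genes. Over all genes edgeR called 36 in WT without the count filter and 18 with the endothelial covariate. The difference between the 2 responses was called for 4 members (1 higher, 3 lower), against 4.72% of all genes (2.01% and 2.71%), and for 1 with the endothelial covariate, against 2.09% of all genes. Leaving out single libraries gave 2 to 6.

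ADGRG5 had the largest response. It had 4.25, 4.86, 3.16 and 4.74 CPM in het1 SAHA tumours, against 11.6, 16.6, 10.8 and 14.0 in het1 DMSO tumours. All SAHA libraries lay below all DMSO libraries, a 3.12-fold fall (log2FC -1.64 ± 0.20, edgeR adjusted p = 9.41e-05). In WT it had 11.6, 13.2, 7.81 and 8.28 under SAHA, against 8.29, 12.2, 13.1 and 11.1 under DMSO, and these overlapped (log2FC -0.13 ± 0.19). The difference between the lines' responses was -1.51 ± 0.28 (edgeR adjusted p = 0.00725, and 0.0668 with the endothelial covariate). The neighbouring ADGRG1 did not pass in either line, at 142 ± 6.37 CPM under SAHA against 148 ± 16.5 under DMSO in het1 (log2FC -0.07 ± 0.094).

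ADGRA2 rose to 2.89, 2.91, 2.80 and 3.53 CPM in het1 SAHA tumours, against 1.66, 1.31, 1.30 and 1.51 in het1 DMSO tumours (log2FC 1.07 ± 0.22, edgeR adjusted p = 0.0026). WT values for ADGRA2 were 1.06, 0.738, 0.859 and 1.14 under SAHA and 0.505, 1.16, 1.46 and 0.992 under DMSO. ADGRA3 fell to 26.2, 24.7, 27.0 and 25.6 CPM under SAHA in het1, against 32.5, 37.6, 33.5 and 35.3 under DMSO (log2FC -0.43 ± 0.072), while WT overlapped at 36.5 ± 2.39 under SAHA and 36.2 ± 3.89 under DMSO. ADGRL2 fell to 3.33, 3.72, 2.32 and 2.69 CPM under SAHA in het1, against 3.81, 4.85, 4.37 and 5.04 under DMSO (log2FC -0.58 ± 0.12). The interactions were 1.19 ± 0.32 for ADGRA2, -0.44 ± 0.10 for ADGRA3 and -0.57 ± 0.15 for ADGRL2 (edgeR adjusted p = 0.0398, 0.0195 and 0.0423). The interaction calls of ADGRA2 and ADGRL2 were each lost in 12 of 16 omissions of a single library, and with the endothelial covariate (edgeR adjusted p = 0.124 and 0.138).

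The other het1 responses were rises under 2-fold. ADGRE2 averaged 2.58 ± 0.0827 CPM under SAHA and 1.40 ± 0.522 under DMSO, and ADGRL1 17.0 ± 1.28 under SAHA and 11.8 ± 0.674 under DMSO. ADGRD1 averaged 9.30 ± 0.963 CPM under SAHA and 6.92 ± 0.715 under DMSO, and CELSR3 15.2 ± 0.974 under SAHA and 11.6 ± 1.204 under DMSO. ADGRG6 did not pass in het1 (log2FC -0.15 ± 0.15) or WT (0.38 ± 0.16, unadjusted p = 0.0293). Its het1 mean was 541 ± 55.8 CPM under SAHA and 599 ± 29.7 under DMSO, and 1 WT SAHA library stood at 63.3 CPM, against 33.4 to 38.6 in the other WT SAHA libraries. The fibroblast and pericyte markers summed to 149.7 to 214 CPM in het1 SAHA tumours, against 108 to 126 in het1 DMSO tumours. In WT they summed to 156 to 453 under SAHA, against 216 to 312 under DMSO. Their part in these responses was not tested.

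**Figure D5:**
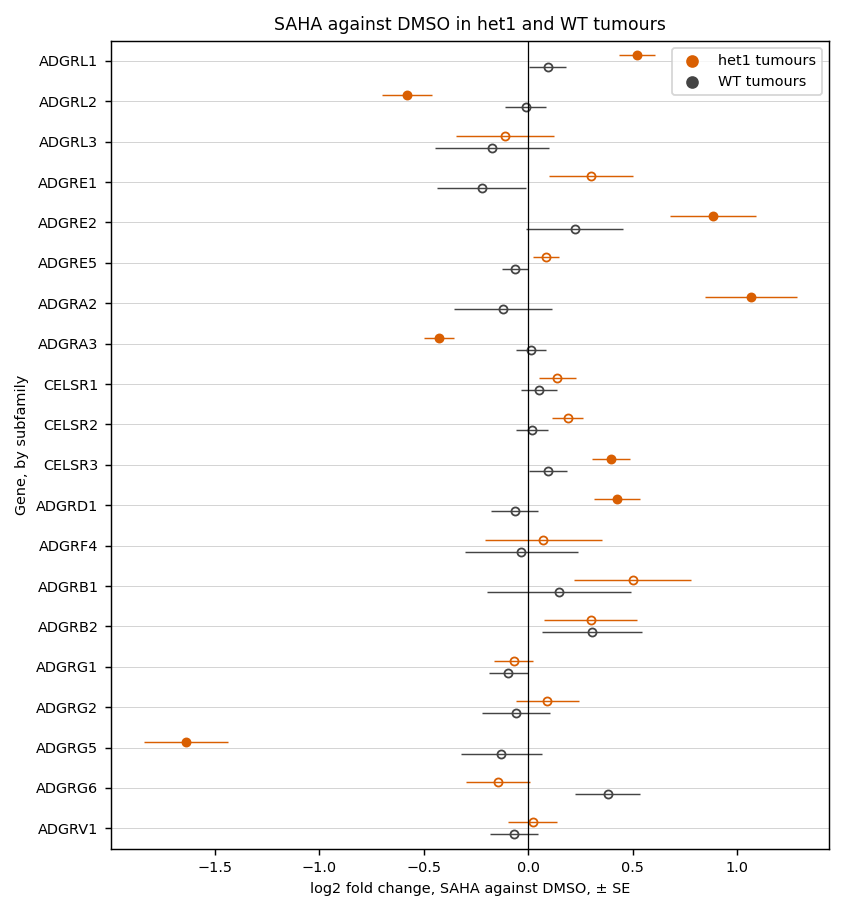
Points are log2 fold changes of SAHA against DMSO tumours with SE bars, in het1 and WT; filled points have an adjusted p under 0.05, and ADGRB3 was not tested. ADGRG5 lies farthest left, at -1.64 in het1, and no WT point is filled.

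Het1 and WT tumours were also compared within each agent. Under DMSO 16 members were called in het1 against WT (11 higher, 5 lower), against 54.0% of all genes (27.3% and 26.8%), and under SAHA 20 (13 higher, 7 lower), against 58.9% (29.9% and 29.0%). ADGRG6 had 481, 517, 555 and 611 CPM in het1 and 37.8, 33.4, 63.3 and 38.5 in WT under SAHA, and 612, 579, 634 and 569.5 in het1 against 33.6, 33.9, 29.0 and 36.4 in WT under DMSO. These are 12.5-fold and 18.0-fold. ADGRL2 was 22.1-fold and CELSR1 2.23-fold lower in het1 under SAHA, and 14.9-fold and 2.37-fold under DMSO. ADGRG1 was lower in het1, with log2FC of -1.17 ± 0.096 under SAHA and -1.196 ± 0.096 under DMSO. ADGRL1, ADGRL3 and ADGRG2 were higher in het1 by 1.55 ± 0.089, 2.45 ± 0.26 and 1.43 ± 0.16 under SAHA. Under DMSO ADGRG5 did not differ by the test between het1 at 13.2 and WT at 11.2 CPM (log2FC 0.24 ± 0.19), whereas at day 30 het1 was lower, at 11.4 against 27.1 CPM. These pairs are in different tables, and the change between them was not tested.

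Known ligands and partners were followed as a list of 31 genes. In het1 tumours under SAHA 11 rose and 1 fell of 29 tested, where 7.68% of all genes rose and 9.15% fell. The list's median log2FC was 0.57, against 0.02 over all genes. FLRT3, a latrophilin ligand, averaged 130 ± 4.38 CPM under SAHA and 77.5 ± 8.17 under DMSO (log2FC 0.75 ± 0.073). UNC5B, a netrin receptor that also binds FLRT proteins, averaged 2.57 ± 0.543 under SAHA and 0.672 ± 0.0954 under DMSO. RECK, the ADGRA2 partner, averaged 21.9 ± 1.16 under SAHA and 16.3 ± 0.727 under DMSO. C1QL1, an ADGRB3 ligand, averaged 5.57 ± 0.447 under SAHA and 3.10 ± 0.529 under DMSO. In WT tumours none of the 29 was called, and the median was 0.05. The partner lists were counted in the main fit only. Over all genes, calls for SAHA in het1 fell from 3801 to 2444 with the endothelial covariate and to 812 with the replicate block. The ligand list holds collagen and laminin genes, and the part of fibroblast and pericyte cells in its rise was not tested.

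At day 30 the ligand list had 10 higher and 11 lower in het1 tumours, 12 and 8 in het2, and 13 and 10 in homo, with medians of 0.006, 0.18 and 0.27, against 0.02, -0.01 and 0.01 over all genes. Of all genes 26.8% were higher and 24.8% lower in het1 tumours, 24.4% and 24.8% in het2, and 27.1% and 27.7% in homo, which is the background for each list at day 30. WNT7B, the signal of the ADGRA2 complex, averaged 10.4 ± 1.78 CPM in het1 and 17.5 ± 1.17 in homo tumours, against 57.0 ± 5.07 in WT. In het1 cells 10 of the 28 ligand list genes tested were higher and 11 lower, against 32.0% and 30.8% of all genes. There WNT7B averaged 31.5 ± 1.80 CPM, against 257 ± 14.3 in WT cells. TGM2, transglutaminase 2, averaged 70.7 ± 2.07 in het1 cells, against 343 ± 8.70 in WT cells. COL3A1, which encodes the type III collagen bound by ADGRG1, averaged 23.6 ± 0.684 in het1 cells, against 0.320 ± 0.0259 in WT cells. The teneurin TENM3 averaged 0.114 ± 0.0424 in het1 tumours, against 4.18 ± 0.520 in WT. PTK7 averaged 14.8 ± 1.91 in homo tumours, against 2.53 ± 0.175 in WT.

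Of the 19 planar cell polarity partners of CELSR, 18 were tested. In het1, het2 and homo tumours 5, 9 and 7 were higher and 7, 6 and 4 lower, with medians of 0.03, 0.28 and -0.02. VANGL2, a core polarity membrane protein, averaged 26.8 ± 2.47 CPM in het1 and 26.5 ± 3.04 in homo tumours, against 12.4 ± 1.01 in WT. DAAM2, a formin that links Dishevelled to actin, averaged 18.0 ± 1.46 in het1 tumours, against 0.0566 ± 0.0361 in WT. Of 22 G proteins and effectors, 7, 4 and 5 were higher and 9, 8 and 11 lower in het1, het2 and homo tumours. ADCY9, an adenylyl cyclase, averaged 32.9 ± 0.593 in het1 tumours, against 73.5 ± 5.03 in WT. ADCY1, another cyclase, averaged 31.3 ± 2.32 in het1 and 33.9 ± 1.67 in homo tumours, against 14.0 ± 1.34 in WT.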

How the data were processed

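Whole-number read counts per gene were deposited by the authors in 3 tables, for cells, day 30 tumours and treated tumours. Per the labels' protocols, RNA came from an RNeasy Plus Mini kit, and a KAPA stranded kit turned polyadenylated RNA into libraries. The tools named are bcl2fastq, HISAT2 and HTSeq, with the build hg38, per the submitters' processing notes. No source used here gives versions, the annotation, the strand setting or the treatment of host reads. All 58721 gene IDs matched GENCODE 29. Each table was fitted with all its groups in edgeR 4.0.16 (R 4.3.3, limma 3.58.1): TMM scaling, filterByExpr, robust quasi-likelihood test, Benjamini-Hochberg adjustment over all genes, calls under 0.05. SEs are the log2 fold change over the square root of F. Tumours and cells were compared in 1 fit of 28 libraries. CPM come from each table's own TMM scale. The scripts were tested on simulated data. Upper limits use 3 counts and cover counting error only. No 2 libraries of a group held identical counts.

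The members, gene lists and tests were chosen with earlier results of these data known. Values in every library are given for called members with at least a 2-fold change, groups that do not overlap and at least 1 CPM in the mean of a group, up to 8 by smallest p (5 for interactions). Other members with values were chosen after their values were seen. Partner genes are up to 4 of smallest p per list and comparison; those repeated for other lines are side by side values. Alternatives were RLE size factors, no count filter, a mean of at least 1 CPM, only the groups compared, DESeq2 1.42.0, a replicate block, an endothelial covariate and omission of each library. The growth by genotype interaction and the DESeq2 count for SAHA in WT were added after the data were seen. One marker sum is not reported here.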

Additional observations from a re-analysis of the deposited data

Results flagged for a closer look

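Each member with a mean of at least 1 CPM in a tumour group gave 1 set of 4 values. Of these 151 sets, 10 held 1 library far from the other 3, and chance gives about 1 in 20 per set. The sets share libraries and are not independent. In day 30 tumours these were ADGRG6 in het2 replicate 0 (271 CPM, others 241 to 245), ADGRG5 in het1 replicate 1 (10.2, others 11.7 to 11.9) and WT replicate 0 (32.8, others 25.1 to 25.5), and ADGRG2 in het1 replicate 3 (5.84, others 4.45 to 4.63). The others at day 30 were ADGRE2 in het1 replicate 2 (1.91 CPM, others 1.447 to 1.498) and ADGRD1 in WT replicate 4 (2.605 CPM, others 3.25 to 3.30). In treated het1 tumours, SAHA replicate 2 stood apart for ADGRE1 (7.02 CPM, others 5.83 to 5.99) and ADGRD1 (7.86 CPM, others 9.73 to 9.84). SAHA replicate 6 stood apart for ADGRA2 (3.53 CPM, others 2.80 to 2.91), and DMSO replicate 2 for CELSR1 (62.1 CPM, others 49.8 to 51.8).

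The response to SAHA differed between het1 and WT, by interaction in edgeR, for ADGRG5 (-1.51 log2 units), ADGRA3 (-0.44), ADGRA2 (1.19) and ADGRL2 (-0.57). The calls of ADGRA2 and ADGRL2 were each lost in 12 of 16 omissions of a single library. None of these SAHA interaction calls held with the replicate block. For the tumour-to-cell difference 15, 18 and 18 members were called in het1, het2 and homo, against 39.2%, 47.6% and 49.1% of all genes. Only the 5 of smallest p with at least a 2-fold difference and 1 CPM in a group mean are listed per line. Members under 2-fold, such as ADGRE5 and CELSR1 in het1, are left out. The tumour-to-cell difference differed from WT in het1 for ADGRG6 (3.38 log2 units), ADGRL3 (2.87), ADGRG2 (2.36), ADGRB2 (1.67) and ADGRE1 (1.39). In het2 it differed for ADGRL3 (4.94, resting on 8 counts over het2 cells), ADGRG6 (2.41), ADGRL2 (1.43), ADGRE5 (1.32) and CELSR1 (1.05). In homo it differed for ADGRG2 (4.06), ADGRG6 (2.71), ADGRL2 (-2.24), ADGRE5 (2.13) and CELSR1 (2.02).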

How the results depend on the processing

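Of 333 alternative counts of called members, 318 stayed within 1.5 times the main count, and of 1971 alternative values of single members 1932 kept direction and call, 39 lost the call and 0 reversed. With the endothelial covariate, 10 members were called in het2 tumours, 11 in homo tumours, 3 for homo against the het tumours, 4 for het1 against het2 tumours and 1 for the SAHA interaction. Over all genes it gave 4058 calls against 11084 in het2 and 3548 against 12348 in homo tumours. Replicate numbers did not pair libraries: same-number correlations ran from -0.13 to 0.11, and 1 of 17 pairs at day 30 exceeded 0.1. With the replicate block 4 members were called for SAHA in het1 and 0 for the interaction, and over all genes 812 against 3801, and 19 against 1066. The block lost the calls of ADGRA2 for SAHA in het1 (edgeR adjusted p = 0.0802) and of the ADGRG5 and ADGRA3 interactions (0.280 and 0.109), with ADGRA2 and ADGRL2 (0.450 and 0.371). Leaving out 1 treated library gave 2 to 6 interaction calls. Without the count filter the ADGRL2 interaction had an edgeR adjusted p of 0.0921. DESeq2 called 151 genes for SAHA in WT, and edgeR called 36 without the count filter and 18 with the endothelial covariate. The cause of these shifts was not tested. Members under 1 CPM rest on few counts, so differences among them may not be detectable at this depth.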
